A study of Mus musculus with 52 samples.

Results

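Blockade of the prostaglandin E2 (PGE2) receptor EP4 was examined in conventional type 1 dendritic cells (cDC1) of the mouse, by setting cells that received an EP4 antagonist before PGE2 against cells that received PGE2 alone. The comparison comprised 8 of the 52 libraries of the series, chosen by their labels, with 4 libraries in each arm. The cells were CD103+ cDC1 sorted from C57BL/6 bone marrow cultures grown with FLT3L and GM-CSF. The EP4 group received L161,982 at 5 uM for 30 min and then PGE2 at 100 ng/ml for 4 h, and the PGE2 group received PGE2 at 100 ng/ml for 4 h. Further groups of 4 libraries were used for reference, namely untreated cells at 4 h and cells given PGE2 for 4 h after 30 min with 5 uM of SC-19220 (EP1 antagonist), PF-04418948 (EP2 antagonist) or L-826,266 (EP3 antagonist). A group labelled as EP2 and EP4 antagonists combined is listed in its treatment label with SC-19220 and L161,982, so that the labels leave unclear which compound joined the EP4 antagonist. It is called the combined group here. Other groups received medium conditioned by BRAFV600E melanoma cells, or by such cells lacking Ptgs1 and Ptgs2, which encode the cyclooxygenases that start prostaglandin synthesis. Genes that differed between these media are called PGE2-dependent here. The contrast does not separate PGE2 from other products of these enzymes. Each antagonist was used at 1 dose, and no group with an antagonist and no PGE2 was analysed here.

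PGE2 acts through the receptors EP1 to EP4, encoded by Ptger1 to Ptger4. EP2 and EP4 couple to the stimulatory G protein that raises cyclic AMP, which activates protein kinase A and the transcription factor CREB, whereas EP1 is linked to calcium signals and EP3 mainly to the inhibitory G protein. cDC1 cross-present antigen to CD8 T cells and depend on the transcription factors Batf3 and Irf8.

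The values were counts of unique molecular identifiers (UMIs) per gene, given here as CPM, the counts scaled to a fixed library size after correction of the library total by TMM, with the SD over 4 libraries where a mean is shown. The PGE2 libraries held 174587 to 324085 counts. EP4 antagonist libraries B, C and D held 193641 to 320979 counts, and library A held 42666 counts, the fewest of the series, so that 3 counts in it equalled 70.3 CPM. Library A also stood apart in content. Its summed level of 21 cytokine and chemokine genes was 8796 CPM against 2707 to 4545 in libraries B to D and 2979 to 3565 in the PGE2 libraries, and that of 34 interferon-stimulated genes was 2374 CPM against 925 to 1197 and 1131 to 1236. As CPM of the uncorrected library total, the chemokine gene Ccl5 stood at 5367 in library A against 857 to 1633 in B to D, and the interferon-stimulated gene Oasl1 at 305 against 20.7 to 62.3. On the same scale, the series' poly I:C libraries at 24 h, which were exposed to this ligand of the receptor TLR3 for 4 h, averaged 40572 ± 1604 for Ccl5 and 4029 ± 124 for Oasl1 (SD, n = 4). Other genes high in the poly I:C libraries did not exceed B to D in library A. Cd40 and Il15 had 0 counts there, against 23.1 to 68.5 and 6.23 to 25.8 in B to D. Their poly I:C means were 1343 and 280, though 0 counts in library A allow up to 70.3 CPM. Ccl4 stood at 46.9, within the 23.1 to 74.8 of B to D, beside a poly I:C mean of 641. Samples were pooled after barcoding, per the labels' protocols, and the source of these transcripts in library A was not tested. Results are therefore given with and without library A where stated, and other fitted values include it. Untreated library A was also shallow, with 54107 counts against 264777 to 331055 in untreated libraries B to D. Its cytokine and chemokine sum was 3206 CPM against 1993 to 2183 in those libraries. Its sum of interferon-stimulated genes was 1717 CPM against 1118 to 1299. Elsewhere, library A with no group named is that of the EP4 antagonist. All 8 cDC1 markers examined were detected in each group. Their summed level was 3822 to 4432 CPM in the EP4 antagonist libraries, 3918 to 4639 in the PGE2 libraries and 7115 to 7938 in untreated cells. The 14 macrophage and monocyte markers summed to 973 to 1279 CPM under the EP4 antagonist and 991 to 1260 under PGE2, with only Adgre1, Mertk and C1qa at 0 in both. Markers of cDC2 summed to 41.9 to 105 and 56.6 to 157 CPM in the same order. Those of plasmacytoid dendritic cells summed to 87.7 to 105 and 69.6 to 187 CPM, and PGE2 library D held the highest value of both lists. Granulocyte and lymphocyte markers summed to at most 22.6 CPM in any of these libraries.

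Few genes differed measurably between cDC1 given PGE2 after the EP4 antagonist and cDC1 given PGE2 alone. Among 5754 genes tested, 2 passed an adjusted p of 0.05 between the groups (0.0348%): Btg1, an antiproliferative cofactor, was lower and Arpp19, a cAMP-regulated phosphoprotein that inhibits a mitotic phosphatase, was higher. An unadjusted p under 0.05 was reached by 337 genes (5.86%). The 95% interval of a gene's log2 fold change, which is not adjusted for the number of genes, extended 0.70 to either side at the median. Changes below about this size could not be resolved for most genes. Larger ones could also fail the adjusted test, as several genes given below did. For comparison, 493 genes (8.57%) differed between PGE2 and untreated cells. Without library A, 1 gene passed of 6052 tested, namely Btg1.

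Btg1 (GRCm38 chromosome 10, 96617006 to 96622809, plus strand) counted 154, 106, 106 and 90.6 CPM in PGE2 libraries A to D and 67.8, 31.9, 41.9 and 31.5 CPM in EP4 antagonist libraries A to D. All 4 PGE2 libraries were above all 4 antagonist libraries, and antagonist libraries B to D lay in the range of untreated cells, 16.4 to 45.8 CPM, with library A above it. The fitted log2 difference was -1.58 ± 0.34 (SE), with an adjusted p of 0.0252 by the quasi-likelihood test of edgeR, and -1.66 with an adjusted p of 0.0203 without library A. PGE2 alone had raised Btg1 over untreated cells by 1.68 ± 0.32 on the log2 scale (adjusted p = 2.14e-05). The levels with the other antagonists were 82.7 ± 24.98 CPM for EP1, 49.4 ± 10.3 for EP2, 45.8 ± 6.17 for EP3 and 32.9 ± 12.4 for the combined group (mean ± SD, n = 4). Set against the same PGE2 libraries, where the EP2 antagonist called 0.417% of genes, the EP3 antagonist 0.0695% and the combined group 9.52%, Btg1 was also lower with the EP2 antagonist (-1.21, adjusted p = 0.0188), the EP3 antagonist (-1.30, adjusted p = 0.0278) and the combined group (-1.76, adjusted p = 1.13e-06). The direct difference between the EP4 antagonist and the EP2 antagonist was -0.37 ± 0.37 (95% interval -1.09 to 0.35), and that from the mean of the EP1 and EP3 antagonists was -0.68 ± 0.33 (adjusted p = 0.961).

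Arpp19 (chromosome 9, 75037614 to 75060313, plus strand) stood at 169.7, 176, 253 and 218 CPM in PGE2 libraries A to D and at 497, 367, 345 and 321 CPM in EP4 antagonist libraries A to D. The groups did not overlap, and library A was the highest. The log2 difference of 0.80 ± 0.17 passed the test (adjusted p = 0.0252), but without library A it was 0.74 with an adjusted p of 0.143. Untreated cells spanned 147 to 336 CPM and overlapped both groups. The other antagonist groups averaged 303 ± 57.4 (EP1), 343 ± 31.1 (EP2), 333 ± 22.5 (EP3) and 429 ± 48.1 CPM (combined), and against the shared PGE2 libraries the EP2 antagonist gave 0.73 (adjusted p = 0.00947) and the combined group 1.05 (adjusted p = 4.49e-08). Between the EP4 and EP2 antagonists Arpp19 differed by 0.07 ± 0.16, with an interval of -0.24 to 0.38. Both genes thus lay at similar levels in several antagonist groups, all of which were compared with the same 4 PGE2 libraries. Each call was also lost when any of several single libraries other than A was left out. The number of genes called ranged from 0 to 3 over these fits, and 0 genes passed without EP4 antagonist library B, C or D or without PGE2 library A or B.

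**Figure D1:**
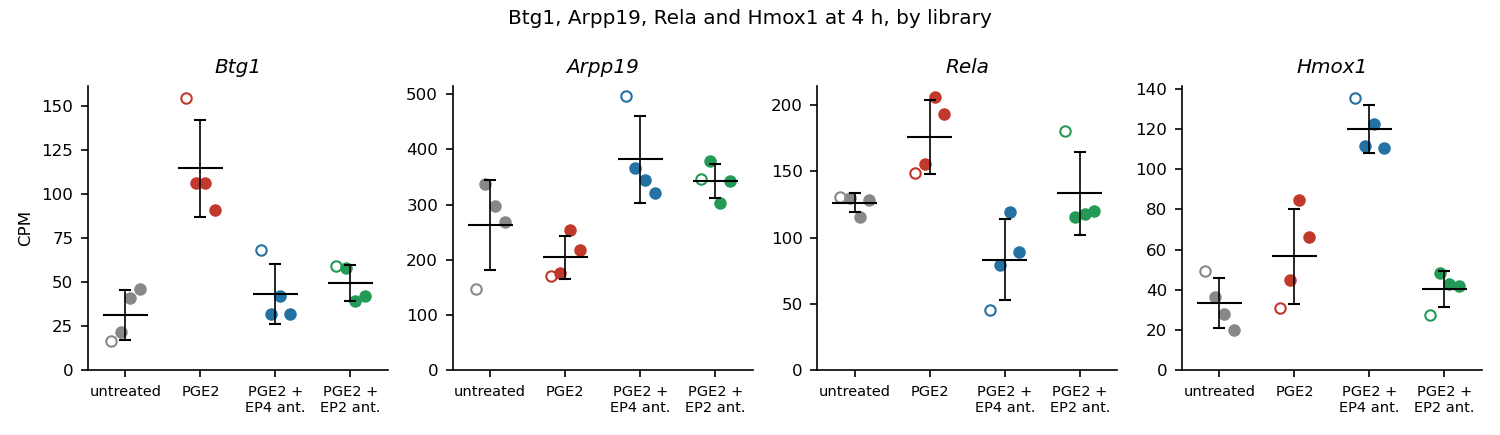
CPM of Btg1, Arpp19, Rela and Hmox1 (vertical axes, linear from 0) in the 4 libraries each of untreated cells, PGE2, PGE2 with the EP4 antagonist and PGE2 with the EP2 antagonist. Open points are library A of each group, and lines and bars show the mean and SD. Btg1 was lower and Arpp19 higher in all 4 EP4 antagonist libraries than in all 4 PGE2 libraries, and the EP2 antagonist libraries lay near the EP4 antagonist libraries for both genes.

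**Figure D2:**
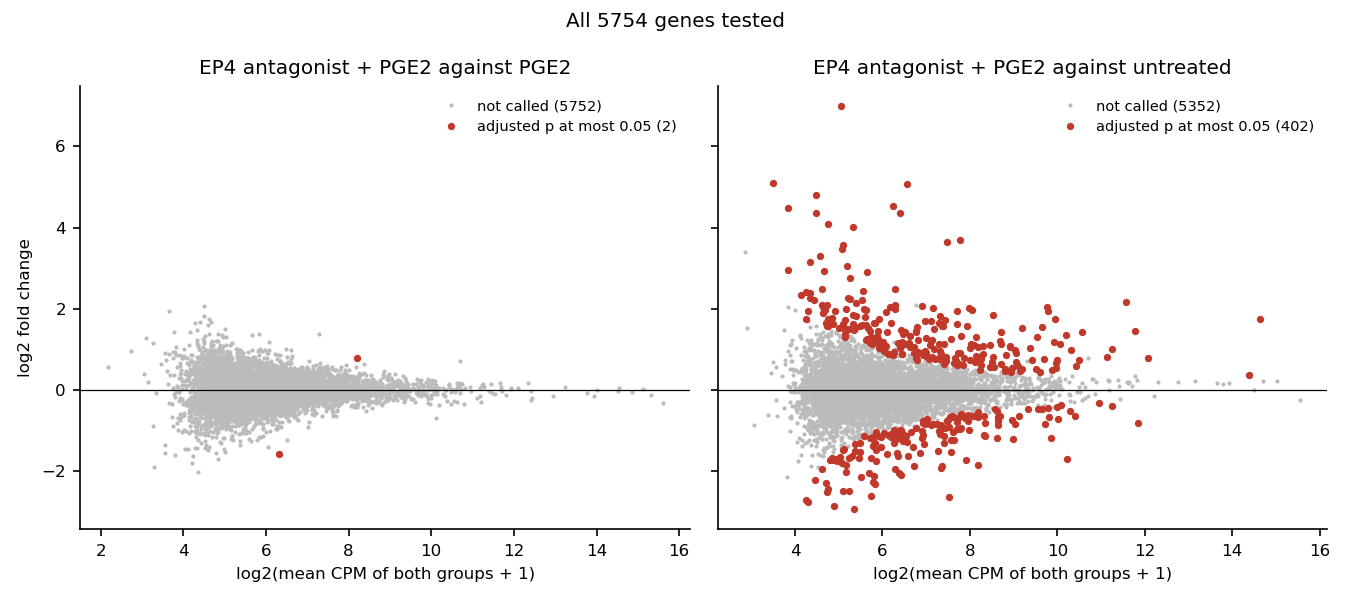
Log2 fold change of each of the 5754 genes tested (vertical axis) against log2 of the mean CPM of both groups plus 1 (horizontal axis), for the EP4 antagonist with PGE2 against PGE2 and against untreated cells. Red points passed an adjusted p of 0.05, 2 genes in the first comparison and 402 in the second.

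The promoters of Btg1 and of 2 members of the cAMP and CREB target list are shown with their matches to the CREB recognition sequence. The full cAMP response element TGACGTCA and its core TGACG, which the full element contains, were searched on both strands of the 250 bases before the RefSeq start (GRCm38.p6). Of 27025 genes in that table, 1.77% held the full element and 19.8% the core. The shares were higher among the 4404 genes tested here that the table held (76.5% of 5754), at 3.34% and 33.7%. Among the genes higher with the EP4 antagonist than in untreated cells, 179 of 241 matched this table, which is under 80%, so that a comparison of the set with other genes is void. Those of 3 genes are printed, Btg1 as the gene called lower against PGE2, and Nr4a2 and Dusp1 as the cAMP targets with the most matches among the called ones considered. The called targets Crem and Pde3b were not included in that choice. The element and each core or its reverse complement are in capitals, written 5′ to 3′ on the gene's strand. They lie at chr10:96616751-96617000 (plus strand, Btg1), chr2:57124004-57124253 (minus strand, Nr4a2) and chr17:26508473-26508722 (minus strand, Dusp1).
Btg1: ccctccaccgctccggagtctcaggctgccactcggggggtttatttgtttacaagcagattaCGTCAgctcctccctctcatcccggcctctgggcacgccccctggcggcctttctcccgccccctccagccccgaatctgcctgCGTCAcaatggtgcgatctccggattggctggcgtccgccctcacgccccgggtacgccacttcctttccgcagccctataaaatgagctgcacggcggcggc
Nr4a2: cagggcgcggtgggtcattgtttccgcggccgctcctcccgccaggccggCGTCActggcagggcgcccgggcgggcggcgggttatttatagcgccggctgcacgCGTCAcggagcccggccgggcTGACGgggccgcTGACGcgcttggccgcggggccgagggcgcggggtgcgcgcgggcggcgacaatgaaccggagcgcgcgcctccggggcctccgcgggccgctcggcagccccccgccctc
Dusp1: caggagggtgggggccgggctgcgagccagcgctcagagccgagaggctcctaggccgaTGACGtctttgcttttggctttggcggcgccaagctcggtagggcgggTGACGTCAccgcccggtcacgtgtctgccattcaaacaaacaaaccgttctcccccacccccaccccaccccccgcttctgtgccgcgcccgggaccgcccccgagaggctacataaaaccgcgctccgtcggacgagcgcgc
The Btg1 promoter holds 2 cores and the Nr4a2 promoter 4, and the Dusp1 promoter holds 1 full element that starts 143 bases before the gene's start, beside 1 separate core. The Arpp19 promoter holds neither, and those of Rgs2, Fos, Nfil3 and Junb and 1 of 4 for Pde4b hold the core alone. These matches describe the sequence, and no binding was measured.

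cAMP and CREB targets were high with the EP4 antagonist. Of 10 members tested, 8 were higher and 1 lower than in untreated cells, where 6.99% of all genes were called (4.19% higher and 2.8% lower), and 0 differed from PGE2. Crem, which encodes a cAMP-responsive modulator of transcription, counted 16.4, 0, 9.37 and 5.72 CPM in untreated libraries A to D, 195, 225, 197 and 133 under PGE2 and 271, 95.7, 116 and 158 with the antagonist. The treated groups overlapped, and both were above every untreated library. Antagonist library A lay above the PGE2 range of Crem, D within it and B and C below it. Crem was 4.37 ± 0.71 higher than in untreated cells on the log2 scale (adjusted p = 6.02e-05), and its difference from PGE2 was -0.52 ± 0.38 with an interval of -1.31 to 0.27. Pde4b, a phosphodiesterase that degrades cAMP, stood at 32.7, 28.9, 24.98 and 17.2 CPM in untreated cells, 252, 143, 178 and 115 under PGE2 and 90.4, 167, 135 and 121 with the antagonist. It rose by 2.50 ± 0.34 over untreated cells (adjusted p = 1.91e-09), and the difference from PGE2 was -0.33 ± 0.24, with an interval of -0.81 to 0.15. Nr4a2, a nuclear receptor induced by cAMP, had 0, 0, 2 and 1 counts in the untreated libraries, 56.6, 69.6, 65.7 and 54.4 CPM under PGE2 and 22.6, 47.8, 90.3 and 36.8 CPM with the antagonist, of which the value in library A was a single count. The antagonist group spanned a wider range than the PGE2 group and contained it, and their difference was -0.11 ± 0.40 (-0.90 to 0.67). The antagonist means without library A were 123 CPM for Crem, 141 for Pde4b and 58.3 for Nr4a2. Nfil3, a transcription factor, was 2.75 ± 0.56 higher than in untreated cells (adjusted p = 0.000291), the phosphodiesterase gene Pde3b 1.72 ± 0.49 (adjusted p = 0.0121), Fos 1.62 ± 0.51 (adjusted p = 0.0298), Junb 0.54 ± 0.14 (adjusted p = 0.00608) and the phosphatase gene Dusp1 1.58 ± 0.50 (adjusted p = 0.0307). Rgs2, a brake on G protein signalling, was lower (-0.95 ± 0.26, adjusted p = 0.00980). On leaving out 1 library the number of higher members ranged from 5 to 8, with 5 without antagonist library C or untreated library B. The calls that were lost in such fits were Pde3b (antagonist C, untreated B or D, adjusted p up to 0.103), Fos (antagonist C, untreated B or C, up to 0.266), Dusp1 (antagonist B or C, untreated A, B or C, up to 0.224) and Rgs2 (antagonist B or C, up to 0.136). Against PGE2, 9 of the 10 log2 differences were below 0 and their median was -0.29, beside a median near 0 over all genes tested, and it was -0.27 without library A. None of these single differences passed the test, with 1 of 10 at an unadjusted p under 0.05 (Junb, -0.29 ± 0.13).

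**Figure D3:**
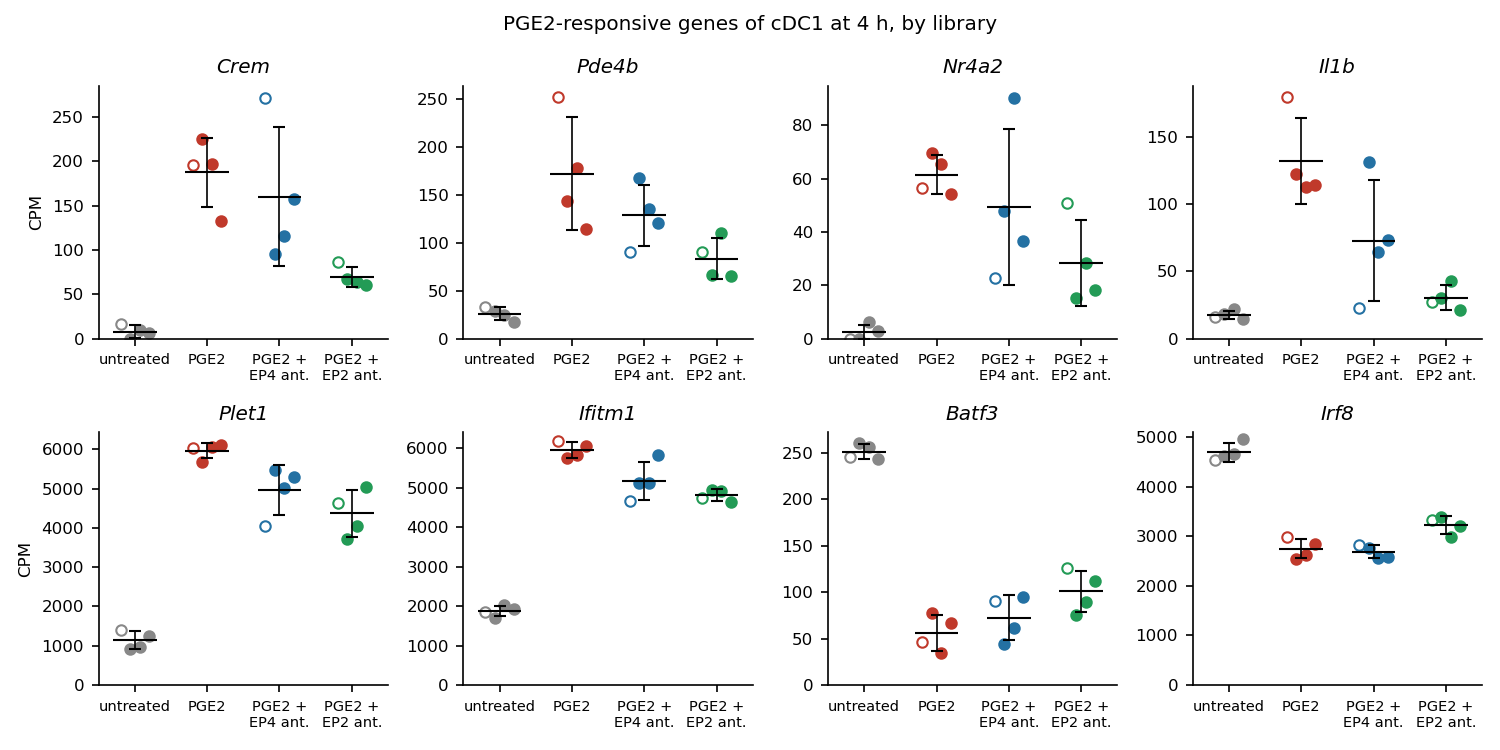
CPM of Crem, Pde4b, Nr4a2, Il1b, Plet1, Ifitm1, Batf3 and Irf8 (vertical axes, linear from 0) in the 4 libraries each of untreated cells, PGE2, PGE2 with the EP4 antagonist and PGE2 with the EP2 antagonist. Open points are library A of each group, and lines and bars show the mean and SD. For all of these genes except Il1b the mean with the EP4 antagonist was nearer to PGE2 than to untreated cells. Il1b averaged 73.1 ± 44.9 CPM with the antagonist against 133 ± 31.9 with PGE2. That exception rests on library A, without which the antagonist mean of Il1b was 89.9 CPM and also nearer to PGE2.

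Genes of cDC1 identity were low with the EP4 antagonist, as they were with PGE2 alone. Of 19 cDC1 identity genes tested, 9 were lower and 1 higher than in untreated cells (2.8% and 4.19% of all genes), and 0 differed from PGE2, against which their median difference was 0.07. Batf3 counted 245, 260.5, 256 and 243 CPM in untreated libraries A to D, 46.3, 77.8, 34.4 and 66.5 under PGE2 and 90.4, 43.8, 61.3 and 94.6 with the antagonist. The treated groups overlapped and both were below every untreated library. Batf3 was -1.93 ± 0.26 relative to untreated cells (adjusted p = 8.96e-10) and 0.28 ± 0.33 relative to PGE2 (95% interval -0.37 to 0.92). Irf8, at 4531, 4609, 4652 and 4972 CPM in untreated cells, 2988, 2549.9, 2628 and 2846 under PGE2 and 2826, 2770.1, 2564 and 2592 with the antagonist, gave the narrowest interval among the named identity genes. It fell by 0.82 ± 0.11 from untreated cells (adjusted p = 1.44e-09), while its difference from PGE2 was -0.04 ± 0.11, with an interval of -0.26 to 0.18. The antagonist means without library A were 66.6 CPM for Batf3 and 2642 for Irf8. The chemokine receptor gene Xcr1 averaged 275 ± 22.9 CPM in untreated cells, 125 ± 15.1 under PGE2 and 124 ± 34.7 with the antagonist, and was lower than in untreated cells (adjusted p = 0.00132). Clec9a, the receptor for dead-cell actin, averaged 64.9 ± 11.5, 38.9 ± 26.4 and 41.1 ± 4.03 CPM in the same order and was called in neither comparison. Naaa (-1.19), Itgae (-0.69), which encodes CD103, Wdfy4 (-0.99), needed for cross-presentation, Ppt1 (-1.22), Snx22 (-1.47) and Btla (-2.33) were the other identity genes below untreated cells. Plet1, the member that PGE2 raised, counted 1407, 926, 965 and 1259 CPM in untreated cells, 6028, 5681, 6070.5 and 6109 under PGE2 and 4047, 5488, 5009 and 5309.6 with the antagonist. Every antagonist library was below every PGE2 library, library A lowest, yet the fitted difference of -0.25 ± 0.23 did not pass (adjusted p = 0.957) and was -0.18 without library A. It exceeded untreated cells by 2.17 ± 0.25 (adjusted p = 2.49e-07). In bulk libraries, fewer cells of a type and less RNA per cell cannot be told apart.

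PGE2-dependent genes of melanoma medium showed the overall size of the shift. These were 140 genes higher (2.43% of those tested) and 87 lower (1.51%) with control medium than with medium of melanoma cells lacking Ptgs1 and Ptgs2. None of those 8 libraries entered the comparisons with the EP4 antagonist, though all were part of the same fit. Deficient-medium library B stood apart from its group. Its median difference from untreated cells was 0.74 over the 140 genes, against 0.11 to 0.19 in A, C and D, and -0.30 over the 87, against 0.01 to 0.11. The choice of these genes fixes their direction in the medium only. Per library, the median difference of the 140 genes from untreated cells, in log2 CPM, was 1.12, 1.24, 1.20 and 1.10 in EP4 antagonist libraries A to D and 1.34, 1.38, 1.27 and 1.37 in the PGE2 libraries. All 4 antagonist libraries were therefore below all 4 PGE2 libraries (group means 1.16 ± 0.07 and 1.34 ± 0.05, SD, n = 4) and far above the untreated libraries, which lay between -0.01 and 0.05. For the 87 genes the medians were -0.95, -0.82, -0.86 and -0.84 with the antagonist and -0.74, -1.01, -0.96 and -1.04 with PGE2, which overlapped. In the gene-wise fit, the 140 genes had a median log2 difference of -0.20 between the EP4 antagonist and PGE2, with 107 below 0, 15 at an unadjusted p under 0.05 and 0 called. The 87 genes had a median of 0.13, with 52 above 0, 8 at an unadjusted p under 0.05 and 0 called. Without library A the medians were -0.18 and 0.11.

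Against untreated cells, 103 of the 140 genes were called higher with the EP4 antagonist (median 1.20), and 54 of the 87 lower (median -0.86). The corresponding values against the same untreated libraries were 117 (1.34) and 63 (-1.04) with PGE2 alone, where 5.21% of all genes were higher and 3.35% lower. They were 91 (0.94) and 45 (-0.68) with the EP2 antagonist, where 2.99% were higher and 1.82% lower, and 7 (0.28) and 6 (-0.20) in the combined group, where 0.608% were higher and 0.191% lower and 1 of the 87 was higher. Group means of the library medians of the 140 genes ordered from PGE2 (1.34), the EP1 antagonist (1.24 ± 0.11), the EP4 antagonist (1.16), the EP3 antagonist (1.10 ± 0.23) and the EP2 antagonist (0.92 ± 0.06) to the combined group (0.26 ± 0.06). The EP1, EP3 and EP4 antagonist libraries overlapped, and EP3 antagonist library B stood apart from its group at 0.76, against 1.16 to 1.25 in A, C and D. The place of the EP3 antagonist after the EP4 antagonist in this order rests on that library. The EP4 antagonist libraries did not overlap those of the EP2 antagonist, 0.85 to 0.98, or of the combined group, 0.21 to 0.33.

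**Figure D4:**
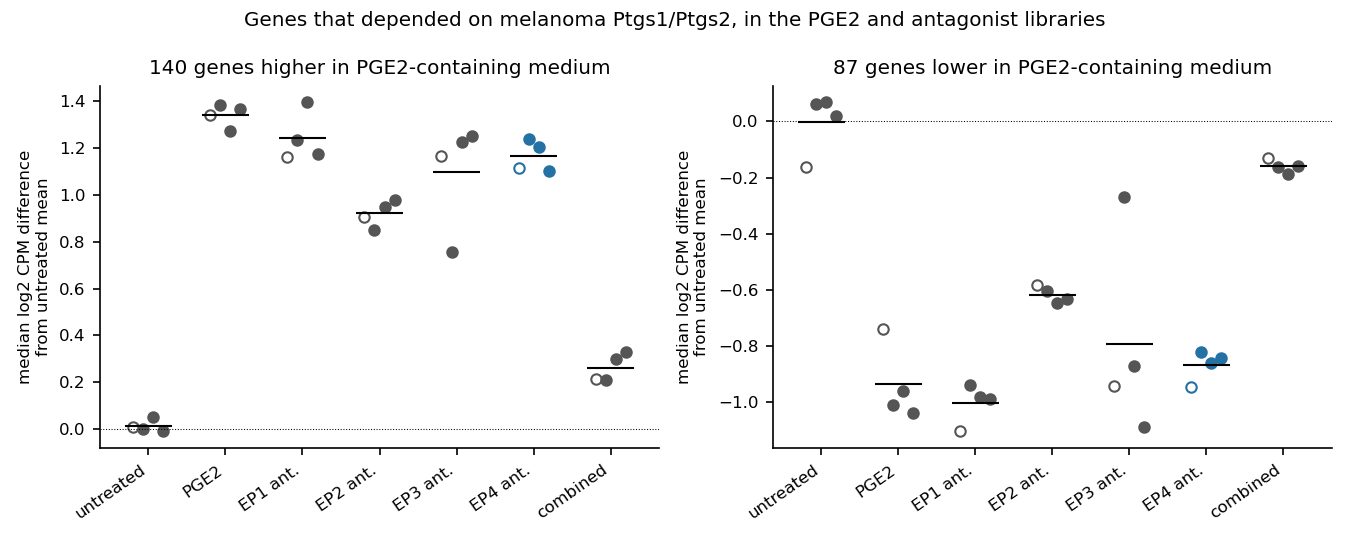
Median log2 CPM difference from the mean of untreated cells (vertical axes) for the 4 libraries of each group. The genes are the 140 higher (left) and the 87 lower (right) with control melanoma medium than with medium of cells lacking Ptgs1 and Ptgs2. Open points are library A of each group, lines are group means and the EP4 antagonist is in blue. In the left panel the EP4 antagonist libraries lie between 1.10 and 1.24, below the PGE2 libraries at 1.27 to 1.38 and above the EP2 antagonist libraries at 0.85 to 0.98.

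The genes ranked by the smallest p against PGE2, beyond Btg1 and Arpp19, did not pass the adjusted threshold in the main fit and are given as values. On the lower side, Rela, which encodes the NF-kB subunit p65, stood at 149, 156, 207 and 193 CPM in PGE2 libraries A to D and 45.2, 79.7, 119 and 89.4 with the antagonist. The groups did not overlap, and the difference was -0.91 ± 0.24 (adjusted p = 0.215, and -0.86 without library A). Cyp51, a sterol demethylase of cholesterol synthesis, had 169.7, 123, 75.1 and 133 CPM under PGE2 and 67.8, 39.9, 41.9 and 73.6 with the antagonist, likewise without overlap, and a difference of -1.24 ± 0.32 (adjusted p = 0.215). It passed the same edgeR test when PGE2 library C was left out (-1.47, adjusted p = 0.0331). Taf3 (-1.42), a subunit of the general transcription factor TFIID, Setd2 (-1.14), a histone methyltransferase, and the ubiquitin ligase gene Rnf216 (-1.17) were also below all PGE2 libraries in each antagonist library. B4galt1 (-1.16), a galactosyltransferase, and Fcgrt (-0.53), the neonatal Fc receptor, overlapped between the groups. On the higher side, Nxt1 (1.37), an mRNA export factor, Polr2j (0.97), a subunit of RNA polymerase II, and Gm2000 (0.62) exceeded all PGE2 libraries in every antagonist library. Manf (0.64), a secreted protein of the endoplasmic reticulum stress response, Ranbp9 (2.08) and D8Ertd738e (0.56) overlapped. Their adjusted p-values ran from 0.152 for Taf3 to 0.510 for Fcgrt. All were picked for their small p, so that the absence of overlap adds nothing to the test.

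Several NF-kB genes and receptors for microbial patterns were above untreated cells. Of 16 NF-kB subunits and targets tested, 6 were higher than in untreated cells (4.19% of all genes) and 0 lower, with a median of 0.68: Relb (1.42 ± 0.35), Nfkbie (1.64 ± 0.37), Nfkbiz (2.39 ± 0.75), Tnfaip2 (0.69 ± 0.18), Traf1 (1.55 ± 0.31) and Il1b. The call of Nfkbiz was lost without antagonist library C or D or untreated library B, C or D (adjusted p up to 0.127). Against PGE2, 13 of the 16 differences were below 0 with a median of -0.35 (-0.36 without library A), and 0 passed. Those at an unadjusted p under 0.05 were Rela, Nfkb2 (-0.79 ± 0.30), Nfkbia (-0.36 ± 0.17) and Il1b. Il1b, which encodes the inflammatory cytokine interleukin-1 beta, stood at 16.4, 18.1, 21.9 and 14.3 CPM in untreated libraries A to D, 180.0, 123, 113 and 115 under PGE2 and 22.6, 132, 64.5 and 73.6 with the antagonist. Antagonist library B lay within the PGE2 range and the other antagonist libraries below it, library A resting on 1 count. The antagonist mean without library A was 89.9 CPM. With library A included, the fitted difference was -0.64 ± 0.30 against PGE2 (unadjusted p = 0.0346, adjusted p = 0.817) and 2.20 ± 0.41 against untreated cells (adjusted p = 2.19e-05). Of 9 pattern recognition receptors tested, 4 were higher and 2 lower than in untreated cells (4.19% and 2.8% of all genes), and 0 differed from PGE2, with a median of -0.36 against it. Without library A 3 were higher and 1 lower, and 1 was lower also without antagonist library C or D or untreated library C or D. Clec7a, the beta-glucan receptor dectin-1, averaged 11.4 ± 14.7 CPM in untreated cells, 173 ± 38.2 under PGE2 and 137 ± 64.8 with the antagonist (adjusted p = 4.66e-05 against untreated cells). Clec4n, which encodes dectin-2, had 1 count in all untreated libraries and averaged 52.95 ± 19.1 CPM under PGE2 and 41.4 ± 14.2 with the antagonist. Cd180, a receptor related to the Toll-like receptors, was lower, at 7.85 ± 5.61 against 71.7 ± 26.9 CPM (adjusted p = 2.97e-05), and at 6.71 ± 6.53 under PGE2.

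Several maturation, chemokine and cytokine genes were high in EP4 antagonist library A. Of 11 cytokine and chemokine genes tested, 4 were higher than in untreated cells (3 without library A and 2 without library C, beside 4.19% of all genes) and 0 differed from PGE2, against which 10 of 11 differences were above 0 with a median of 0.14 (0.08 without library A). Ccl17 (1.31 ± 0.15), a chemokine for CCR4-bearing T cells, Ccl22 (0.92 ± 0.23) and Cxcl16 (1.20 ± 0.16) were higher than in untreated cells, Ccl22 not without antagonist library C (adjusted p = 0.0577). Ccl17 stood at 1063, 1128, 1284 and 778 CPM with the antagonist and 1137, 1203, 1014 and 755 with PGE2, overlapping groups with a difference of 0.05 ± 0.14 (-0.22 to 0.32). Il12b, which encodes the shared subunit of interleukin-12 and interleukin-23, counted 497, 71.7, 323 and 68.3 CPM in antagonist libraries A to D, 51.4, 123, 71.97 and 42.3 under PGE2 and 114, 72.4, 59.3 and 42.9 in untreated cells. Antagonist libraries A and C were high, and B and D lay within the PGE2 range. Its difference from PGE2 was 1.38 ± 0.49 (unadjusted p = 0.00855, adjusted p = 0.636) and 1.13 without library A. Its call against untreated cells (1.64 ± 0.50, adjusted p = 0.0440) was lost without library A (1.39, adjusted p = 0.0978) and without library C (0.997, adjusted p = 0.427), and without untreated library B, C or D (adjusted p up to 0.154). Cd83, a maturation marker, rose over untreated cells by 1.94 ± 0.24 (adjusted p = 8.15e-10) and stood at 565, 287, 323 and 158 CPM with the antagonist against 334, 274, 319 and 218 with PGE2, library A above and library D below the PGE2 range. Its antagonist mean without library A was 256 CPM. Ccr7, the lymph node homing receptor, had 520.1, 136, 252 and 147 CPM with the antagonist and 221, 225, 122 and 163 with PGE2, a difference of 0.23 ± 0.25 that was 0.02 without library A. Cxcl9 and Cxcl10, which attract T cells through CXCR3, counted 11, 5, 5 and 1 and 8, 5, 6 and 4 UMIs in antagonist libraries A to D, so that library A held the highest CPM of both by far, and their fitted differences from PGE2 of 0.01 and 0.02 became -1.09 (adjusted p = 0.858) and -0.64 (adjusted p = 0.965) without it. By edgeR, 0 of 14 interferon-stimulated genes tested were called against PGE2 or untreated cells, with 0 and 3 at an unadjusted p under 0.05, whereas the 3 Ifitm genes tested were all higher than in untreated cells. Ifitm1, an antiviral membrane protein, had 4658, 5126, 5115 and 5825 CPM with the antagonist, 6182, 5763, 5829.5 and 6067 with PGE2 and 1865, 1704, 2029.6 and 1917 in untreated cells. It was 1.46 ± 0.12 above untreated cells (adjusted p = 6.14e-23), and its difference from PGE2 was -0.19 ± 0.11, with an interval of -0.41 to 0.02. The antagonist mean of Ifitm1 without library A was 5355 CPM. Reads of the Ifitm paralogs could have been split by the counting.

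**Figure D5:**
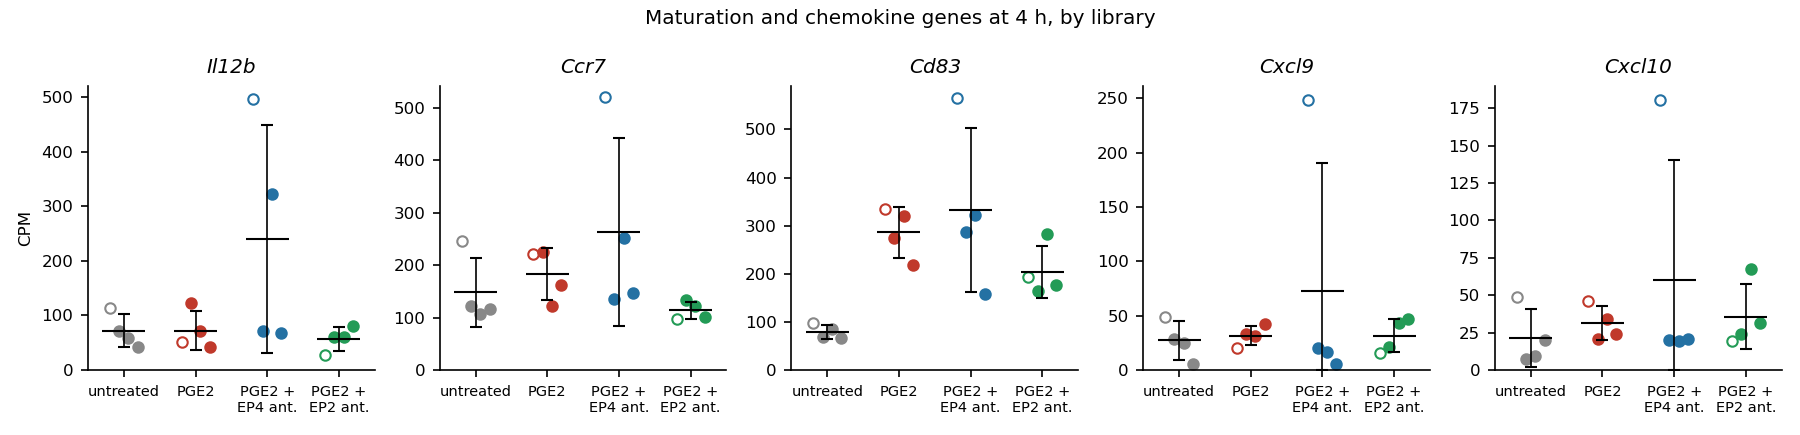
CPM of Il12b, Ccr7, Cd83, Cxcl9 and Cxcl10 (vertical axes, linear from 0) in the 4 libraries each of untreated cells, PGE2, PGE2 with the EP4 antagonist and PGE2 with the EP2 antagonist. Open points are library A of each group, lines and bars show the mean and SD, and bars are drawn only above 0. EP4 antagonist library A is the highest point for all 5 genes, at 249 CPM for Cxcl9, and library C is second among the antagonist libraries for Il12b, Ccr7 and Cd83.

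Among the receptors, RNA of the targeted gene is no check of an antagonist, which acts on the protein. Ptger4, which encodes EP4, was too low to be tested, with 5, 5, 10 and 8 counts in untreated libraries A to D, 0, 6, 1 and 0 under PGE2 and 0, 0, 1 and 2 with the EP4 antagonist. Every treated library but 1 was below the untreated range of 18.1 to 81.8 CPM. Ptger2, which encodes EP2, stood at 49.1, 10.9, 24.98 and 11.4 CPM in untreated cells, 15.4, 36.8, 21.9 and 60.4 under PGE2 and 67.8, 43.8, 61.3 and 47.3 with the antagonist. The difference was 0.72 ± 0.43 against PGE2 (adjusted p = 0.890) and 1.50 ± 0.47 against untreated cells (adjusted p = 0.0268), a call that was lost without antagonist library C (1.36, adjusted p = 0.138), without untreated library B (1.30, adjusted p = 0.126) or D (1.25, adjusted p = 0.147), and with the Wald test of DESeq2 (adjusted p = 0.0531). Ptger3, which encodes EP3, averaged 81.7 ± 26.2 CPM in untreated cells, 27.2 ± 6.64 under PGE2 and 30.2 ± 12.8 with the antagonist. It fell by 1.30 ± 0.38 from untreated cells (adjusted p = 0.0141), which did not pass without antagonist library C (-0.96, adjusted p = 0.198) or untreated library C (-1.23, adjusted p = 0.0591). Ptger1 had at most 1 count in any of these libraries. Of 23 genes for G proteins and protein kinase A signalling, 3 were higher and 3 lower than in untreated cells (4.19% and 2.8% of all genes) and 0 differed from PGE2. The higher ones were Rgs9, Arrb1 (1.02 ± 0.27), which encodes a beta-arrestin, and Prkar1a (0.69 ± 0.16), a regulatory subunit of protein kinase A, and the lower ones Gnai2 (-0.40 ± 0.11), Gnb1 (-0.66 ± 0.20) and Rgs10 (-0.84 ± 0.13). Without antagonist library B 1 was lower, Gnai2 (adjusted p = 0.0737) and Gnb1 no longer passing, and Gnb1 was also lost without antagonist library C or untreated library B, C or D (adjusted p up to 0.102).

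Across all genes, 402 were called between the EP4 antagonist group and untreated cells, 241 higher and 161 lower, of which 147 also passed the labels' log2 threshold of 1.5. Scaling by library totals alone gave a median of -0.12 over all genes, against -0.01 in the main fit, and 201 higher and 267 lower. Without library A, 399 genes were called, of which 368 were among the 402. The number was 400 without untreated library A and 380 with both of these shallow libraries left out. The largest rises included Sdcbp2, which encodes syntenin-2, with 0 counts in all untreated libraries and 90.4, 67.8, 45.2 and 52.6 CPM with the antagonist, at least 21.5-fold higher than 3 counts over the untreated group. Rgs9, a regulator of G protein signalling, also had 0 counts in untreated cells and was at least 6.91-fold higher by the same measure, at 45.2, 3.99, 22.6 and 10.5 CPM. That bound was 4.15-fold without library A, and the call of Rgs9 was lost without antagonist library C (adjusted p = 0.0800). Ctla2a, a cysteine protease inhibitor, averaged 3.90 ± 2.83 CPM in untreated cells, 178 ± 16.7 under PGE2 and 184 ± 29.1 with the antagonist. Cd93, a receptor of the myeloid surface, had 1 count in untreated cells and stood at 0, 23.9, 41.9 and 36.8 CPM with the antagonist and 66.9, 40.9, 62.6 and 54.4 with PGE2, so that each antagonist library except C was below the PGE2 range, with a difference of -0.81 ± 0.48 that did not pass (adjusted p = 0.890). Large falls included Cd180, Arhgap17 (-2.86 ± 0.68), Bbs9 (-2.77 ± 0.74), of the ciliary BBSome, Slc9a7 (-2.72 ± 0.84), a sodium-proton exchanger, and the proton channel gene Hvcn1 (-2.62 ± 0.49). The call of Bbs9 was lost without antagonist library B or untreated library C (adjusted p up to 0.0850), and that of Slc9a7 without antagonist library B or D or untreated library A or C (up to 0.134). Of 19 lysosomal genes tested, 5 were lower than in untreated cells (2.8% of all genes; 3 without untreated library C), including Cd68 (-1.13), Lipa, Grn (-0.84) and Psap (-0.47), none of which differed from PGE2. Lipa was lost without antagonist library B or C or untreated library C or D (adjusted p up to 0.179) and Psap without antagonist library D or untreated library B or C (up to 0.140).

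The other lists are given as counts of genes called against untreated cells, where 4.19% of all genes tested were higher and 2.8% lower. Of 9 maturation and costimulation genes 3 were higher, namely Cd83, Socs2 (2.04 ± 0.66), a suppressor of cytokine signalling, and the actin-binding protein gene Marcks (0.91 ± 0.26). This count was 7 of 11 tested without antagonist library B, 5 of 11 without D and 6 of 11 without untreated library A. It was 2 of 10 without untreated library D, and 2 of 9 with 1 lower gene without antagonist library A. Of 15 apoptosis and survival genes 3 were higher, the survival genes Bcl2a1a (1.73 ± 0.55) and Bcl2a1d (1.50 ± 0.43), whose reads the counting could have split, and the death-promoting gene Bad (0.89 ± 0.29), with 1 left without antagonist library B or C and 0 without untreated library C or D. Of 12 MHC class II presentation genes 2 were higher, the invariant chain gene Cd74 (0.36 ± 0.10) and the protease gene Ctss (0.53 ± 0.12), and 1 without antagonist library B or D or untreated library A. The 3 lower ones were H2-DMa (-0.38 ± 0.13), H2-DMb1 (-0.42 ± 0.13) and the class II transactivator gene Ciita (-0.66 ± 0.18), with 1 left without antagonist library A or untreated library B, C or D. Of 8 prostaglandin pathway genes Ptger2 was higher, and Ptger3 and the prostaglandin D synthase gene Hpgds (-1.55 ± 0.28) were lower. The cholesterol synthesis genes Fdps (-1.10 ± 0.32) and Cyp51 (-0.98 ± 0.33) were lower of 14, with 1 left without antagonist library A or C or untreated library B or D and 0 without antagonist library B or untreated library C. Single lower calls were 1 of 13 MHC class I presentation genes (Psmb9, lost without antagonist library B or C or untreated library C), 1 of 13 glycolysis and hypoxia genes (Pfkl, lost without antagonist library B or C or untreated library D) and 1 of 22 proliferation genes (Mki67, lost without antagonist library B or untreated library C). By edgeR, 0 of 10 TLR3 signalling genes, 0 of 13 heat shock and stress genes and 0 of 6 mitochondrial transcripts were called, with 1 gene of each list at an unadjusted p under 0.05. Against PGE2, 0 members of any list passed. The median against PGE2 was -0.24 for glycolysis and hypoxia (11 of 13 below 0) and -0.21 for apoptosis and survival (10 of 15 below 0), and -0.20 and -0.12 without library A.

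The EP4 and EP2 antagonists, given at the same dose and time, were compared directly, without the PGE2 libraries, as the first of 2 comparisons between antagonists, each adjusted over its own 5754 genes. One gene passed (0.0174%), and 357 had an unadjusted p under 0.05. Hmox1, which encodes the heme-degrading and stress-inducible heme oxygenase 1, stood at 136, 112, 123 and 110.4 CPM in EP4 antagonist libraries A to D and 27.5, 48.5, 42.8 and 41.8 in EP2 antagonist libraries A to D. The groups did not overlap, and the log2 difference was 1.51 ± 0.32 (95% interval 0.88 to 2.15, adjusted p = 0.0307). Untreated cells averaged 33.3 ± 12.4 CPM, PGE2 56.7 ± 23.6, the EP1 antagonist 79.2 ± 15.8, the EP3 antagonist 86.03 ± 42.7 and the combined group 39.9 ± 9.29. Hmox1 was higher than in untreated cells with the EP4 antagonist (1.98 ± 0.36, adjusted p = 9.94e-06), and all 4 EP4 antagonist libraries were above the PGE2 libraries, whose range was 30.9 to 84.5 CPM, but that difference of 1.00 ± 0.32 did not pass (adjusted p = 0.540). The call between the antagonists was lost on leaving out any 1 of the 8 libraries, with differences of 1.40 to 1.62 and adjusted p-values from 0.0518, without EP4 antagonist library A, to 0.378, without EP2 antagonist library A.

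Most cAMP targets and PGE2-dependent genes had a higher fitted level with the EP4 than with the EP2 antagonist, and no member passed. Of the 10 cAMP and CREB targets, 9 differences were above 0, with a median of 0.49. Crem averaged 160.2 ± 78.5 CPM with the EP4 and 69.4 ± 11.7 with the EP2 antagonist, a difference of 0.95 ± 0.43 (0.08 to 1.83, adjusted p = 0.769). Pde4b averaged 129 ± 31.98 and 83.2 ± 21.5 CPM and differed by 0.75 ± 0.26 (0.24 to 1.26, adjusted p = 0.662), and Sdcbp2 averaged 63.98 ± 19.99 and 17.7 ± 1.88 CPM and differed by 1.68 ± 0.45 (0.79 to 2.57, adjusted p = 0.218). For Sdcbp2 each EP4 antagonist library was above each EP2 antagonist library. Il1b stood at 27.5, 30.3, 42.8 and 20.9 CPM in EP2 antagonist libraries A to D, within or below the EP4 antagonist range, and differed by 1.48 ± 0.36 (adjusted p = 0.149). The median difference over the 140 PGE2-dependent genes was 0.23, with 114 above 0 and 34 at an unadjusted p under 0.05, and over the 87 genes it was -0.22, with 66 below 0 and 15 at an unadjusted p under 0.05. The 19 cDC1 identity genes had a median of -0.31, with Batf3 at -0.60 ± 0.28 (-1.15 to -0.04) and Irf8 at -0.27 ± 0.11 (-0.49 to -0.05). All these medians and fitted differences include EP4 antagonist library A. Without it the EP4 antagonist means were 123 CPM for Crem, 141 for Pde4b, 55.2 for Sdcbp2, 89.9 for Il1b, 66.6 for Batf3 and 2642 for Irf8.

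Against the mean of the EP1 and EP3 antagonists, the second comparison, 0 genes passed (0%) by the quasi-likelihood test of edgeR or the Wald test of DESeq2, and 285 had an unadjusted p under 0.05. The median difference was -0.02 over the 140 genes, with 60 above 0, and 0.05 over the 87. The mean compared includes EP3 antagonist library B, which stood apart from its group on both lists. Its library medians were 0.76 over the 140 genes and -0.27 over the 87, against 1.16 to 1.25 and -1.09 to -0.87 in A, C and D. Crem differed by -0.47 ± 0.34, Pde4b by -0.17 ± 0.21, Batf3 by -0.20 ± 0.27, Irf8 by 0.05 ± 0.10 and Plet1 by -0.18 ± 0.20. These values include EP4 antagonist library A, and 0 genes passed without it. In the combined group, whose compounds the labels give in conflicting ways, 548 genes differed from PGE2, including Crem (23.5 ± 10.1 CPM, adjusted p = 1.30e-05), Pde4b (29.5 ± 7.48, adjusted p = 8.19e-14), Batf3 (166 ± 43.9, adjusted p = 1.72e-07), Irf8 (3978 ± 72.6, adjusted p = 6.81e-05) and Plet1 (1389 ± 162, adjusted p = 1.45e-07). Those values are set beside the ones of the EP4 antagonist, since both were compared with the same PGE2 libraries.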

How the data were processed

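Per the labels' protocols, polyadenylated RNA of 52 bulk samples was barcoded, pooled and sequenced from the 3′ end, and the authors ran the Drop-seq pipeline on GRCm38 (Ensembl release 75) to obtain the deposited UMI counts of each gene. DESeq2 1.14.1 and GRCm38.p6 are named in the submitters' processing notes. Neither the aligner nor the strand setting is given in the sources used here.

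The table had 23136 lines. In 1 of them a count was replaced by text, and it was left out. Library totals ran from 42666 to 438491 counts. A count of 0 allows up to 3 counts, and this limit covers counting error only. All 36 libraries at 4 h (9 groups of 4) were fitted together by edgeR 4.0.16 in R 4.3.3 with its quasi-likelihood test (TMM, filterByExpr by group, robust), 5754 genes passing the filter, and p-values were adjusted by Benjamini-Hochberg over these genes at 0.05. Intervals cover 95%. Genes were named by rule: those called, filled to 8 in each direction by the smallest p against PGE2, up to 6 in each direction in other comparisons, and genes fixed by name. Further genes are called members of the lists or were chosen after their values were seen. Members and lists were chosen with earlier results of these data known. Alternatives covered scaling, filter, robustness, the replicate letter as a block, the groups fitted, DESeq2 1.42.0 and leaving out libraries. The scripts were tested on simulated data. The labels call the letters biological replicates without naming separate animals or cultures, so p-values cover only how far these samples spread, and that spread may be technical. Replicate pairs of the 2 groups differed by more than counting noise (chi-square per degree of freedom 1.47 to 1.87). A few genes that the rule would name are not reported here.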

Additional observations from a re-analysis of the deposited data

Results flagged for a closer look

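In 4 of 81 groups of 4 libraries examined, 1 library lay far from the other 3, and chance gives this in about 1 in 20 groups. Cxcl9 stood at 249 CPM in EP4 antagonist library A, from 11 counts, against 5.26 to 19.9 in libraries B to D. Cxcl10 stood at 181 CPM in the same library, from 8 counts, against 19.4 to 21.03. Il1b stood at 180.0 CPM in PGE2 library A, against 113 to 123 in the other PGE2 libraries. Gm2000 stood at 175 CPM in PGE2 library D, against 188 to 191.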

How the results depend on the processing

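The number of genes called between the EP4 antagonist with PGE2 and PGE2 was 2, and 2 under other scalings, without robust estimation, with DESeq2 and in a fit of only the groups compared. It was 0 with no filter on low counts, where 19659 genes were tested, 1 with both shallow libraries left out (EP4 antagonist A and untreated A), and between 0 and 3 on leaving out 1 library at a time. Against the EP2 antagonist the count of 1 became 0 by library totals alone, with both shallow libraries left out, with DESeq2 and without any 1 library (0 to 0), 2 with no filter, 4 without robust estimation and 9 in a fit of only the groups compared. Against the mean of the EP1 and EP3 antagonists the count of 0 became 1 without robust estimation, and 0 to 1 on leaving out 1 library. Against untreated cells it ranged from 304 to 468 around 402. The medians of the PGE2-dependent genes ranged from -0.22 to -0.17 and from 0.08 to 0.16. The causes were not tested. With the replicate block, 2 genes were called against PGE2, 422 against untreated cells and 0 against the EP2 antagonist. Same-letter libraries of the EP4 antagonist and PGE2 groups correlated in their deviations by -0.0098 to 0.057, and those of the EP4 antagonist and untreated groups by 0.021 to 0.066. EP4 antagonist library D correlated best with library D of every other group examined, by 0.025 to 0.074. A weak effect shared by letter was not tested further. As these correlations were small, the letters were not taken to pair samples. Of the values of single named genes under the alternatives, 1632 kept direction and side of the threshold, 181 no longer passed, 4 newly passed and 30 changed sign without passing under either setting. Library A limits any statement about genes below 70.3 CPM in it.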
